A study of Mus musculus with 3 samples.

Results

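Tfh subcluster 8 is a small cluster of dividing follicular helper T cells (Tfh) in mouse spleen. Its members were the rows that the authors' table of Tfh cells assigns to subcluster 8, found in the count matrices by barcode. They numbered 46 cells in the sample with the B cell knockout of Siglec-G (BKO), 64 in WT run 1 and 53 in WT run 2, or 163 of 18693 rows in all. The WT runs hold the same cells, so the members were 115 distinct cells of 13625, with 46 from BKO and 69 from WT.

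The samples were BKO, in which B cells lack Siglec-G, an inhibitory receptor that binds sialic acid, and wild type (WT). All mice had been immunised with liposomes carrying ovalbumin (OVA), and cells were taken on day 14 from tissue labelled spleen, although the treatment text also names lymph nodes. BKO and WT run 1 are labelled batch 1 and WT run 2 batch 2. Tfh and follicular regulatory T cells (Tfr) were sorted by antibody staining and read with the 10x Chromium 3′ assay, which counts RNA molecules by unique molecular identifiers (UMIs). The sources used here give no Cre driver, age or number of mice per sample. Siglecg had 0 UMIs in members of each sample, which allows up to 5.10 CPM in BKO, 4.39 CPM in WT run 1 and 3.50 CPM in WT run 2 (CPM, UMIs scaled to a common total of 1000000), and T cells cannot check a knockout made in B cells.

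A dividing cell first licenses replication origins with the MCM helicase, then copies its DNA and makes histones in S phase, and then builds the spindle, attaches chromosomes at kinetochores and splits in G2 and M phase. E2F factors drive many S-phase genes, and the DREAM and B-Myb complexes act on many G2/M genes through a short promoter element named CHR. Tfh cells carry the receptor CXCR5 and the factor BCL6 and help germinal centre B cells through CD40 ligand, IL-21 and IL-4.

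All 5554 barcodes of WT run 1 were found again in WT run 2, and none of the 46 BKO members shared a barcode with a WT matrix. The 2 WT samples were therefore treated as 1 library sequenced in 2 runs, and 1 library stands for each genotype. No test between genotypes has residual degrees of freedom, and a cluster set against the cells it was split from is no test either. Differences are given as descriptions with fixed rules of size, with intervals that cover counting error only. Of the WT members, 48 were in subcluster 8 in both runs, 16 in run 1 only and 5 in run 2 only. Of the 16 seen in run 1 only, 15 were in no table for run 2, and 14 of these had 4000 genes or more in its matrix. Of the 5 seen in run 2 only, 2 were classed as Tfr in run 1 and 3 were in no table for run 1. Of these 3, 0 had 4000 genes or more in the matrix of run 1. The authors' tables hold no cell of 4000 genes or more.

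Members were large cells in RNA content. They had a median of 12948 UMIs in BKO, 10572.5 in WT run 1 and 16448 in WT run 2, against 6232, 4384 and 7239 UMIs in the other Tfh cells of the same samples. The sums over subcluster 8 were 588753, 684067 and 856324 UMIs, so that 3 UMIs, the limit that a count of 0 allows, equal those CPM values. The mitochondrial share was lower in members, with medians of 2.71% in BKO, 3.04% in WT run 1 and 3.07% in WT run 2, against 4.22%, 3.88% and 3.87% in other Tfh cells. BKO held 2 members under 1000 UMIs, with 560 and 799 UMIs, and 3 members with fewer than 10 mitotic UMIs, while WT held none of either kind.

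The label of cycling cells was checked against the markers Mki67, Top2a, Birc5 and Cdk1. At least 1 UMI of the 4 was present in 45 of 46 BKO cells, 64 of 64 cells of WT run 1 and 53 of 53 cells of WT run 2. Their summed level was 1583, 2564 and 2545 CPM, against 39.6, 47.4 and 50.2 CPM in the other Tfh cells. Cd4 UMIs were found in 42 of 46 BKO cells, 55 of 64 cells of WT run 1 and 52 of 53 cells of WT run 2. The 5 Tfh markers (Cxcr5, Bcl6, Pdcd1, Icos and Cd4) summed to 815, 689 and 718 CPM in members, against 1381, 1285 and 1289 CPM in other Tfh cells. Ms4a1, a B cell marker, was at 0 in each sample. Ighm, the heavy chain of immunoglobulin M, had 264, 190 and 286 UMIs in members, or 448, 278 and 334 CPM, against 435, 386 and 395 CPM in other Tfh cells. Of the plasma cell markers Jchain, Mzb1 and Sdc1 there were 3, 0 and 0 UMIs, while a wider list of 8 plasma cell genes held 19, 49 and 97 UMIs, or 32.3, 71.6 and 113 CPM, against 169, 219 and 212 CPM. There were UMIs of germinal centre B cell markers (7, 10 and 17) and erythroid markers (6, 0 and 2). The 4 myeloid markers summed to 134, 107 and 100.4 CPM, against 104, 88.2 and 81.2 CPM, with Csf1r at 0. The 5 markers of CD8 T and NK cells summed to 28.9, 469 and 464 CPM, against 34.6, 250 and 232 CPM in other Tfh cells, with Cd8a, Klrd1 and Ncr1 at 0 in members. Foxp3, the factor of regulatory T cells, had a UMI in 3 of 46, 6 of 64 and 11 of 53 members (6.52%, 9.38% and 20.8%), against 0.867%, 0.246% and 9.79% of other Tfh cells. With 2500 UMIs drawn from each cell, Foxp3 was found in 0 of 44, 0 of 64 and 3 of 53 members. The shares of other Tfh cells were then 0.191%, 0.0865% and 3.91%. The 4 Tfr markers (Foxp3, Il2ra, Ikzf2 and Ctla4) summed to 1374, 1291 and 1436 CPM in members, against 1564, 1777 and 1789 CPM in other Tfh cells.

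Cell cycle genes set subcluster 8 apart from the other Tfh cells, as the choice of a cycling cluster implies, and they spanned every step from licensing to cytokinesis. The rule of size asked for a difference of at least 2-fold in CPM in each of the 3 samples, and a mean of at least 50 CPM. Of 3490 genes so compared, 200 were higher (5.73%) and 143 lower (4.1%). The cluster was made from these cells and genes, so the counts describe it and support nothing further. Of the 200 higher genes, 94 were in the 10 cell cycle lists and 14 were other histone genes.

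Among the 4 markers, Birc5 encodes survivin, the chromosomal passenger protein. Birc5 stood at 501 CPM in BKO, 498 in WT run 1 and 451 in WT run 2, against 2.62, 2.16 and 2.58 CPM in the other Tfh cells. Its UMIs were found in 41 of 46, 57 of 64 and 51 of 53 members, against 1.43%, 0.792% and 1.69% of the other Tfh cells. Mki67 encodes a protein that coats mitotic chromosomes. It was at 406 CPM in BKO, 927 in WT run 1 and 883 in WT run 2, against 13.9, 17.8 and 17.96 CPM in other Tfh cells. Top2a, the topoisomerase that untangles sister DNA, was at 521, 922 and 998 CPM, against 20.6, 24.99 and 27.0 CPM. Cdk1, the kinase of mitotic entry, was at 155, 216 and 213 CPM, against 2.48, 2.44 and 2.62 CPM. Every member level lay above that of the other cells of its sample, and BKO was the lowest for Mki67, Top2a and Cdk1 but not for Birc5.

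All 7 origin licensing genes compared were higher. Mcm5, a subunit of the MCM helicase, stood at 95.1 CPM in BKO, 97.9 in WT run 1 and 80.6 in WT run 2, against 13.2, 15.5 and 15.97 CPM in other Tfh cells. Gmnn, whose product geminin blocks relicensing, was at 139, 178 and 165 CPM, against 20.6, 22.3 and 21.4 CPM. Of 16 genes of DNA synthesis 15 were higher. Pcna, the sliding clamp, was at 279, 273 and 260 CPM, against 61.8, 57.6 and 61.7 CPM, and Rrm2, a subunit of ribonucleotide reductase, was at 172, 153 and 174 CPM, against 3.62, 2.83 and 4.13 CPM. Pola1, a subunit of the replicative polymerase alpha, was at 102 CPM in BKO, against 225 and 206 CPM in WT, and Clspn was at 100.2 CPM in BKO, against 177 and 148 CPM in WT.

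All 13 replication-dependent histone genes compared were higher, with median log2 ratios of 4.02 in BKO, 4.64 in WT run 1 and 4.71 in WT run 2. Hist1h1b, a linker histone gene, was at 1342 CPM in BKO, 3010 in WT run 1 and 2397 in WT run 2, against 6.89, 9.03 and 7.78 CPM in other Tfh cells. Most transcripts of these genes carry no poly(A) tail, which the assay primes on, and the gene copies are near-identical, so their levels are partial and the split among copies is uncertain.

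Mitotic entry genes had the largest median log2 ratios of the cycle lists, at 5.22 in BKO, 5.42 in WT run 1 and 5.34 in WT run 2. Of 7 mitotic entry genes 6 were higher, of 6 passenger and checkpoint genes 5, of 10 centromere and kinetochore genes 9, and of 19 spindle and cytokinesis genes 18. Ccnb1, the mitotic cyclin B1, was at 115 CPM in BKO, 99.4 in WT run 1 and 107 in WT run 2, against 2.62, 1.83 and 2.17 CPM in other Tfh cells. Cdc20, which activates the anaphase-promoting complex, was at 204, 153 and 142 CPM, against 1.99, 1.88 and 1.82 CPM. Ube2c, the ubiquitin carrier of that complex, was at 403, 510 and 522 CPM, against 2.55, 2.11 and 2.41 CPM. Cenpf, a kinetochore protein, was at 183, 391.8 and 395 CPM, against 1.32, 1.16 and 1.27 CPM, and was lowest in BKO. Tubulin genes (Tuba1b, Tubb5, Tubb4b) were also higher, with near-identical copies as a limit. Stmn1, the tubulin-binding protein stathmin, was at 1468, 1513 and 1328 CPM, against 21.7, 29.1 and 27.3 CPM. Of 17 chromosome structure genes 13 were higher. Hmgb2, a chromatin protein of dividing cells, was at 5957, 5292 and 5518 CPM, against 413, 409.7 and 408.5 CPM.

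**Figure D1:**
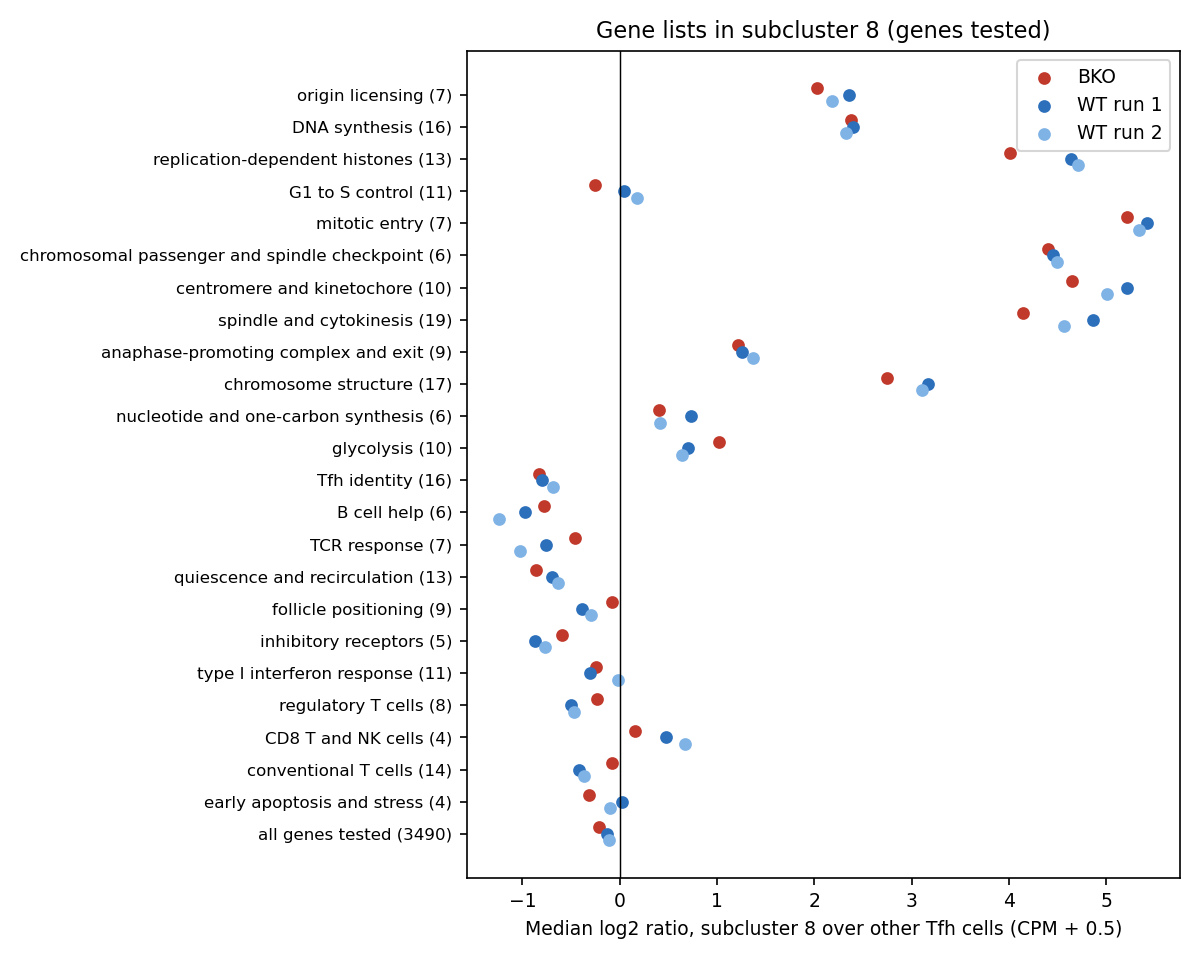
Median log2 ratio of subcluster 8 over the other Tfh cells (x axis, CPM with 0.5 added) for each gene list with at least 4 genes compared (rows, number compared in brackets); points are BKO, WT run 1 and WT run 2. Mitotic entry lies near 5, histones between 4.02 and 4.71, and Tfh identity between -0.83 and -0.68, while all 3490 genes lie between -0.21 and -0.11.

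Of 11 genes of G1 to S control 3 were higher, 1 was lower and 7 passed neither rule. Myc had 2, 4 and 2 UMIs in members. Ccnd2, a D cyclin of G1, was at 284, 240 and 260 CPM, against 371, 331 and 353 CPM in other Tfh cells. Ccnd3, another D cyclin, was the only cell cycle list gene called lower, at 243 CPM in BKO, 170 in WT run 1 and 151 in WT run 2, against 630, 814 and 812 CPM. The inhibitors Cdkn2c and Cdkn2d were higher, Cdkn2d at 148, 189 and 135 CPM, against 43.6, 39.6 and 34.9 CPM.

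Promoters of S-phase and G2/M genes differed in the cycle elements they held. RefSeq promoters (GRCm38.p6) from 250 bases before to 50 after the start were searched on both strands for E2F octamers (TTTCCCGC, TTTGGCGC, TTTCGCGC or TTTGCCGC), the CHR element (TTTGAA) and the CCAAT box (CCAAT). Of 22 higher genes of the licensing and DNA synthesis lists 18 had a promoter entry, and of 38 higher G2/M genes 34. An E2F octamer lay in 6 of 18 S-phase promoters and 2 of 34 G2/M promoters, against 2.32% of 27025 promoters of all genes. A CHR match lay in 2 of 18 S-phase promoters and 24 of 34 G2/M promoters, against 18.1% of all. CCAAT lay in 13 of 18 and 24 of 34, against 37.9%. The promoters below show an S-phase gene, 2 G2/M genes that carry CHR, and Cdk1, which carries both elements, with all matches in capitals. A match is a description of the letters, not of a bound site.
Mcm5: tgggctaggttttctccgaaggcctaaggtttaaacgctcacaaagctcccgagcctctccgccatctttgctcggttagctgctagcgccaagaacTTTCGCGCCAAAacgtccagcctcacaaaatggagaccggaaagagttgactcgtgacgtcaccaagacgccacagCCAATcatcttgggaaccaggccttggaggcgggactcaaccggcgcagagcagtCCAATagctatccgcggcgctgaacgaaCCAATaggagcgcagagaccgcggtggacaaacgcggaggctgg
Cdk1: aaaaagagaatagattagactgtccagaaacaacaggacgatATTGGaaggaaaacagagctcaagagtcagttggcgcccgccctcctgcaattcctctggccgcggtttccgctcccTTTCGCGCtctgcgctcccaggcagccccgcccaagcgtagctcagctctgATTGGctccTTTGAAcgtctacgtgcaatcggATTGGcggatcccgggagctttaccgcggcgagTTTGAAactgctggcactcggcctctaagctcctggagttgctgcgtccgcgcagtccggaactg
Cdc20: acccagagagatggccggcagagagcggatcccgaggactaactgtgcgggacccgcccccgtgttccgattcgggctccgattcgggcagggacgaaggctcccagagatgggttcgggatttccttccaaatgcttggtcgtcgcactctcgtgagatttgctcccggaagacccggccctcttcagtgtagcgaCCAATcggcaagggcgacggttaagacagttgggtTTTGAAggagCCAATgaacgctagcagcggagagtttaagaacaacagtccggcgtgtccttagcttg
Top2a: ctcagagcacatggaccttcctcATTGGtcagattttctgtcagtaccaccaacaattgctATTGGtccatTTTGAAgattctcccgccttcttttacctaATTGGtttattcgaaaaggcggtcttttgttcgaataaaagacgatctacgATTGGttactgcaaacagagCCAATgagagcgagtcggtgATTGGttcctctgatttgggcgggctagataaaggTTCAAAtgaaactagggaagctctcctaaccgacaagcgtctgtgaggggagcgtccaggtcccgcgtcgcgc
Mcm5 (chr8:75109259-75109558, plus strand) holds 2 overlapping E2F matches, 3 CCAAT boxes and 0 CHR matches. Cdk1 (chr10:69352863-69353162, minus strand) holds 1 E2F match, 2 CHR matches and 3 CCAAT boxes. Cdc20 (chr4:118437294-118437593, minus strand) holds 1 CHR match and 2 CCAAT boxes, and Top2a (chr11:99024140-99024439, minus strand) holds 2 CHR matches and 6 CCAAT boxes. Motifs and genes were chosen with the values known. Birc5, Ccnb1 and Pcna had 0 matches to E2F and CHR in this window.

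The authors' finer clustering, at resolution 1, split subcluster 8 into fine clusters 18 and 17. Fine cluster 18 took 17 of 46 BKO members (37.0%, 95% interval 23.2 to 52.5%), 37 of 64 members of WT run 1 (57.8%, 44.8 to 70.1%) and 29 of 53 of WT run 2 (54.7%, 40.5 to 68.4%), and fine cluster 17 took the rest. The intervals of the genotypes overlap. Cells of fine cluster 18 had a median of 131 UMIs of the licensing and DNA synthesis lists in BKO, 74 in WT run 1 and 112 in WT run 2, against 12, 14 and 15 UMIs in fine cluster 17. Their histone UMIs had medians of 266, 294 and 466, against 10, 10 and 15.

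Gene by gene, fine cluster 18 was at least 2-fold above fine cluster 17 in each sample for 12 of 12 DNA synthesis genes and 12 of 13 histone genes, against 101 of 1706 genes compared (5.92%). Clspn, whose product claspin signals stalled forks, was at 250 CPM in BKO, 291 in WT run 1 and 256 in WT run 2 in fine cluster 18, against 15.9, 14.2 and 8.08 CPM in fine cluster 17. Top2a and Cdk1 were higher in 18 too. Cdc20 ran the other way, at 70.8, 79.5 and 84.5 CPM in fine cluster 18, against 279, 259 and 218 CPM in fine cluster 17. Cenpa, the centromeric histone, was at 274, 343 and 381 CPM, against 745, 738 and 671 CPM, short of 2-fold in WT run 2. Birc5 had 505, 547 and 486 CPM, against 499, 430 and 404 CPM, so it marked both. Cd40lg was among the 15 genes lower in fine cluster 18 (0.879%), at 28.3, 42.2 and 51.5 CPM, against 172, 153 and 191 CPM. These clusters were drawn from the same genes, and their naming by phase was not attempted.

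**Figure D2:**
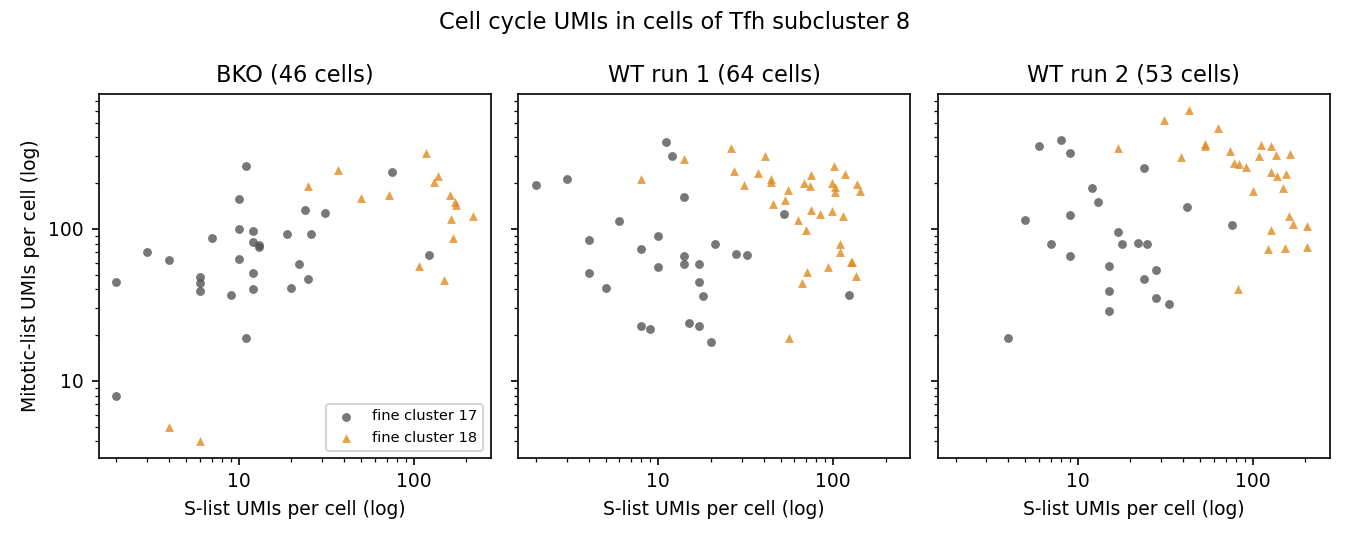
UMIs per cell of the licensing and DNA synthesis lists (x axis, log) and of the mitotic lists (y axis, log) for each member of subcluster 8 in BKO, WT run 1 and WT run 2, marked by fine cluster. Fine cluster 18 (triangles) has median S-list UMIs of 131, 74 and 112 and fine cluster 17 (circles) of 12, 14 and 15, while mitotic UMIs are present in both; the 2 BKO triangles at the bottom are the cells of 560 and 799 UMIs.

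Most members had more G2/M than S UMIs, with 41 of 46 (89.1%, 76.4 to 96.4%) in BKO, 58 of 64 (90.6%, 80.7 to 96.5%) in WT run 1 and 48 of 53 (90.6%, 79.3 to 96.9%) in WT run 2. The lists differ in size and level, so the share does not place cells in a phase. The intervals of the 3 samples overlap.

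The median log2 ratio of Tfh identity genes was -0.83 in BKO, -0.80 in WT run 1 and -0.68 in WT run 2, against -0.21, -0.13 and -0.11 over all genes compared. Of 16 Tfh identity genes 0 were higher and 3 lower (Bcl6, Il6st and Izumo1r), and of 6 B cell help genes 0 were higher and 2 lower (Il4 and Tnfsf8), against 5.73% higher and 4.1% lower of all genes compared. Bcl6, the lineage factor of Tfh cells, was at 52.7 CPM in BKO, 61.4 in WT run 1 and 59.6 in WT run 2, against 184, 171 and 180 CPM in other Tfh cells. Il4 was at 22.1, 16.1 and 30.4 CPM, against 79.9, 93.5 and 99.97 CPM, from 13, 11 and 26 UMIs. Cxcr5, short of the rule in BKO and WT run 2, was at 124, 89.2 and 105 CPM, against 233, 202 and 199 CPM. All Tfh levels named here were lower in members in each sample.

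Per cell the picture differed, since members held more RNA. Cxcr5 had 1.59, 0.953 and 1.70 UMIs per member, against 1.58, 0.994 and 1.60 per other Tfh cell. Icos, a costimulatory receptor, had 2.43, 1.86 and 2.58, against 2.00, 1.32 and 2.12 UMIs per cell. Bcl6 stayed lower on this scale, with 0.674, 0.656 and 0.962 UMIs per member, against 1.25, 0.843 and 1.45. With each cell thinned to 2500 UMIs, Bcl6 was found in 6 of 44, 7 of 64 and 5 of 53 members (13.6%, 10.9% and 9.43%), against 31.3%, 29.7% and 30.3% of other Tfh cells, and 2, 0 and 0 members were left out as too shallow. Without thinning the shares were 37.0%, 35.9% and 32.1%, against 52.6%, 41.7% and 52.9%. Thinned Il21 shares of 4.55%, 3.12% and 5.66%, against 12.0%, 7.24% and 8.01%, rest on 2 to 3 members each.

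Of the higher genes, 92 were in no cycle list and were not histone genes, which does not place them outside the cycle. They included Ptma, which encodes prothymosin alpha, and Ran, the GTPase of nuclear transport and spindle assembly. Ptma was at 3976, 4048 and 3772 CPM, against 1119, 950 and 950 CPM in other Tfh cells. Pclaf, a partner of the sliding clamp that the cycle lists leave out, was at 523, 617 and 601 CPM, against 4.29, 5.37 and 6.50 CPM. Vim, the intermediate filament vimentin, was at 747 CPM in BKO, 494 in WT run 1 and 518 in WT run 2, against 105, 92.2 and 95.1 CPM. Klf2, a factor of T cell quiescence and migration, was the only one of 13 quiescence and recirculation genes called higher, at 324, 301 and 266 CPM, against 92.2, 92.2 and 87.0 CPM, while Btg1, Foxp1 and Il7r were lower. Lgals1, which encodes galectin-1, was at 1911, 1460 and 1259 CPM, against 363, 321 and 314 CPM. The choice of Ptma, Ran, Pclaf, Vim and Lgals1 was made with their values known. Of 10 glycolysis genes 0 passed the rule, with median log2 ratios of 1.02, 0.70 and 0.64.

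Of the 143 lower genes 75 had over 100 kb of intron (52.4%), against 16.1% of all genes compared. Their median summed intron length was 116.5 kb, against 24.6 kb over all 3490 genes and 7.31 kb for the higher genes. Of 562 genes with over 100 kb of intron 75 were lower and 8 higher, and their median log2 ratio was -0.99 in BKO, -0.67 in WT run 1 and -0.57 in WT run 2. Of 526 genes under 3 kb 6 were lower and 68 higher, with medians of 0.37, 0.28 and 0.20. Setbp1 (349 kb of intron) was at 15.3, 16.1 and 28.0 CPM, against 102, 136 and 137 CPM, while Malt1, a signalling protein downstream of the T cell receptor with 30.1 kb of intron, was at 119, 81.9 and 94.6 CPM, against 435, 349 and 355 CPM. Malat1, an unspliced nuclear RNA, was at 4245, 6850 and 7565 CPM, against 23987, 23058 and 24170 CPM. With the trend over intron length taken off, 53 genes were lower, 34 of them among the 143, and 194 were higher, 171 of them among the 200. The part of RNA processing or capture in the lower genes was not tested. Scaling by trimmed means (TMM) in place of total UMIs gave 244 higher and 84 lower genes, as it moved the median log2 ratio of all genes from -0.14 to 0.0059.

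To describe what kind of Tfh cell the members resembled, each was matched to the mean profile of the other 8 Tfh subclusters over 300 genes outside the cycle, a step chosen after the data were seen. The same step put 67.0%, 79.2% and 79.2% of the other Tfh cells back in their own subcluster. For subcluster 2 this was 44.7% in BKO, 48.4% in WT run 1 and 47.7% in WT run 2, the lowest of the 8, and for subcluster 5 it was 97.8% in both WT runs. Members of BKO lay nearest to subcluster 2 in 19 of 44 cells (43.2%, 28.3 to 59.0%) and subcluster 4 in 13 (29.5%, 16.8 to 45.2%). In WT run 1 the counts were 16 of 64 (25%) for subcluster 2, 14 (21.9%) for 4 and 15 (23.4%, 13.8 to 35.7%) for 5. In WT run 2 they were 17 of 53 (32.1%), 10 (18.9%) and 14 (26.4%, 15.3 to 40.3%). Only 1 of 44 BKO members was nearest to subcluster 5, which held 11 BKO cells in all (0.174% of the other Tfh cells), against 9.83% in WT run 1 and 10.2% in WT run 2. Subcluster 0, with 19.1%, 28.3% and 29.3% of the other Tfh cells, was nearest for only 1, 4 and 3 members. Of 48 WT members read in both runs, 46 had the same nearest subcluster.

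**Figure D3:**
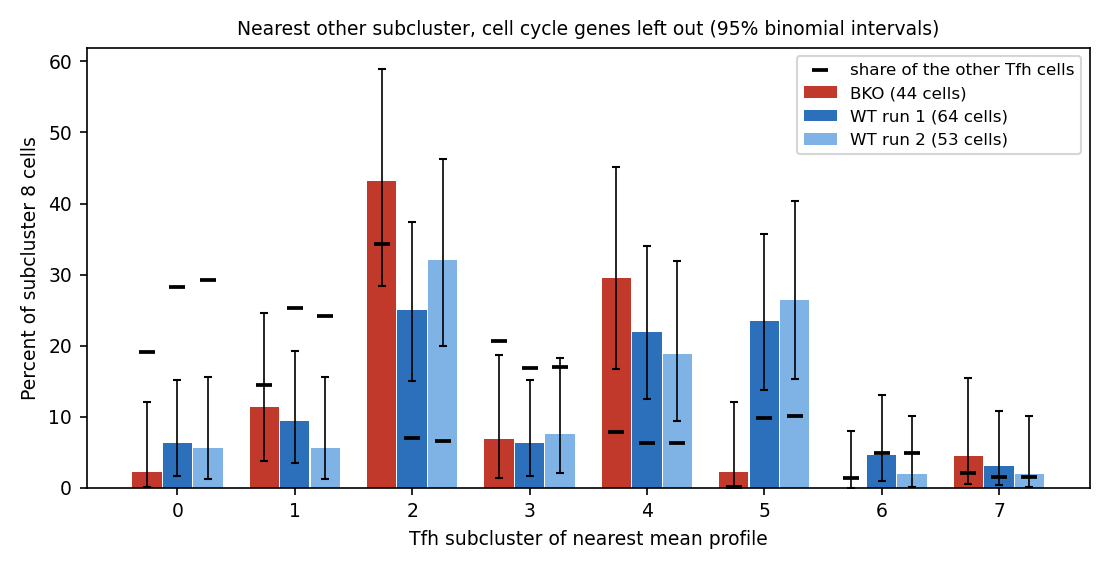
Percent of subcluster 8 members (y axis) by the Tfh subcluster of nearest mean profile (x axis) in BKO, WT run 1 and WT run 2, with 95% exact binomial intervals; black dashes are the percent of the other Tfh cells in that subcluster. Subcluster 5 takes 23.4% and 26.4% of WT members and 1 of 44 in BKO, and subcluster 0 takes fewer members than its share of other Tfh cells in each sample.

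UMIs of the chemokine gene Ccl5 lay mostly in WT members nearest to subcluster 5. Subcluster 8 held 1 Ccl5 UMI in BKO, against 1241 in WT run 1 and 2003 in WT run 2. In each WT run 13 members had at least 10 Ccl5 UMIs, they carried 98.6% and 99.0% of the total, and all 13 were nearest to subcluster 5. Ccl5 may be among the genes of that match, so the match is no separate evidence. Of the 13, 12 in each run were in fine cluster 18. The median mitotic UMIs of the 13 were 191 and 296, against 80 and 107 in the other members of the same runs. All WT members of fine cluster 18, which include the 12, had medians of 177 and 266. The ratio of BKO to WT was 9.36e-04 for run 1 (2.37e-05 to 0.00523 by counting) and 7.26e-04 for run 2 (1.84e-05 to 0.00405). In other Tfh cells Ccl5 was at 33.1 CPM in BKO, against 2222 and 2115 CPM in WT, so the level was low in BKO there too. Nkg7, a cytotoxic granule gene, was at 23.8 CPM in BKO members, against 453 and 454 CPM in WT. Cd8a, Klrd1 and Ncr1 were at 0 in members of each sample, while Cd8b1 was not. The 5 markers of CD8 T and NK cells summed to 17, 321 and 397 UMIs in members. Nkg7 gave 14, 310 and 389 of these, and Cd8b1 the few that remain.

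The share of Tfh cells in subcluster 8 was lower in BKO. Subcluster 8 took 46 of 6389 Tfh rows in BKO (0.720%, 0.528 to 0.959%), against 64 of 3727 in WT run 1 (1.72%, 1.33 to 2.19%) and 53 of 3668 in WT run 2 (1.44%, 1.08 to 1.89%). The intervals do not overlap, and they cover counting of cells in 1 library per genotype only. The other Tfh cells of BKO had a median of 2431 genes, against 2037 in WT run 1 and 2765 in WT run 2. The tables give lower UMI totals for WT run 2 than its matrix does, and 32 of 53 members there had 4000 genes or more in the matrix. The part of the ceiling in the share was not tested.

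Cells with at least 10 UMIs of the mitotic lists were then counted in all barcodes of at least 1000 genes. Of 1115 such cells in BKO 57.6% were in no table, against 50.1% of 451 in WT run 1 and 35.8% of 974 in WT run 2. A stricter minimum of 20 UMIs, which 42 of 46, 62 of 64 and 52 of 53 members passed, left 439 such cells in BKO, 232 in WT run 1 and 320 in WT run 2. Of these, 83.4% (79.6 to 86.7%) were in no table in BKO, against 64.2% (57.7 to 70.4%) in WT run 1 and 66.6% (61.1 to 71.7%) in WT run 2. In BKO 347 of 366 cells in no table had 4000 genes or more, as had 135 of 149 and 209 of 213 in WT. Subcluster 8 held 9.57%, 26.7% and 16.2% of them. Of all cells of at least 1000 genes, those with at least 20 mitotic UMIs made up 4.71% in BKO (4.29 to 5.16%), 4.27% in WT run 1 (3.75 to 4.85%) and 5.84% in WT run 2 (5.23 to 6.49%), so that the BKO interval overlapped that of run 1 and lay below that of run 2. With each cell thinned to 2500 UMIs, cells with at least 10 mitotic UMIs made up 2.82% of 9246 cells in BKO (2.49 to 3.18%), 3.07% of 5239 in WT run 1 (2.62 to 3.58%) and 2.75% of 5463 in WT run 2 (2.33 to 3.21%). The intervals of the thinned shares overlap, and the minimum was set after the data were seen. These cells outside the tables were not sorted into Tfh and Tfr, and doublets among them were not called.

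**Figure D4:**
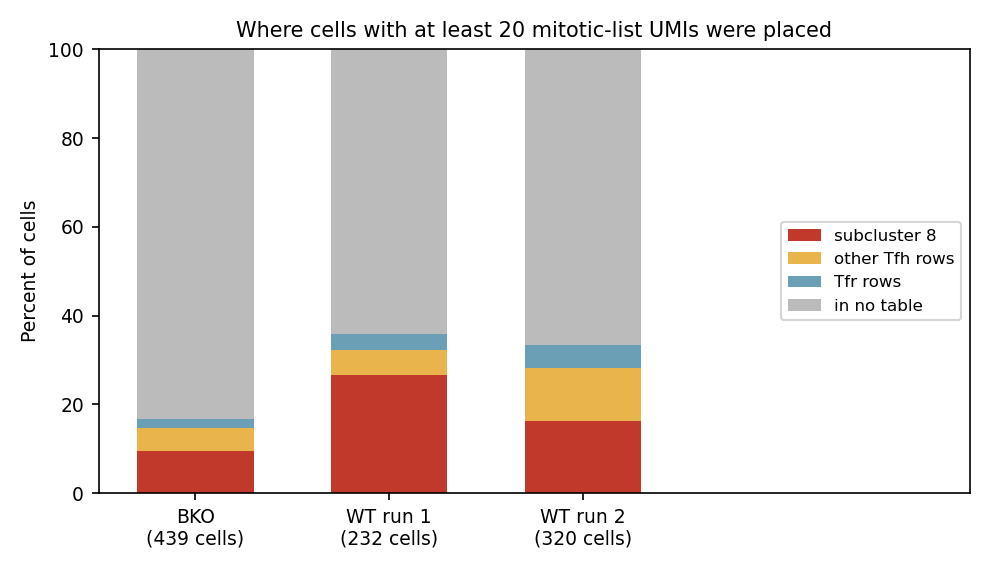
Percent of cells with at least 20 mitotic-list UMIs (y axis) that the authors' tables place in subcluster 8, in other Tfh rows, in Tfr rows or in no table, for BKO, WT run 1 and WT run 2, with the number of cells under each bar. Subcluster 8 holds 9.57% of them in BKO, against 26.7% and 16.2% in the WT runs, and most are in no table.

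Within subcluster 8, BKO and WT members differed in the levels of many cycle genes. A gene was called when BKO was at least 1.5-fold beyond both WT runs, among genes of a mean of at least 100 CPM. Of 1706 genes, 61 were higher in BKO (3.58%) and 301 lower (17.6%). With TMM scaling 167 were higher and 228 lower, and the median log2 ratio of all genes moved from -0.028 to 0.12. With 1 WT run left out, the higher genes numbered 110 against WT run 1 alone and 142 against WT run 2 alone. By the same rule 0 and 7 genes were higher and 3 and 2 lower when WT run 1 or WT run 2 was set against the other samples. The WT runs read the same cells, so low counts were fixed in advance. They show differences between runs only and give no error rate for the BKO calls. The BKO matrix was made with Cell Ranger 4 and the WT matrices with Cell Ranger 7.0.1, whose default counts intron reads, and genotype and software version cannot be told apart.

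Over 100 kb of intron, 135 of 243 genes were lower in BKO and 0 higher, with a median log2 ratio of -0.73. Under 3 kb, 26 of 374 were lower and 31 higher, with a median of 0.29. From 3 to 10 kb, 8 of 328 were lower and 13 higher with a median of 0.24, while 25 of 379 genes of 10 to 30 kb were lower with a median of 0.0063, and 107 of 382 of 30 to 100 kb with a median of -0.41. In the other Tfh cells the medians over 100 kb and under 3 kb were -0.35 and 0.20. In other Tfh cells the 1.5-fold rule called only 33 of the 1706 genes lower in BKO, and 30 of these were among the 301 lower genes. It called 7 higher there, and all 7 were among the 61 higher genes. Set against the ratio in other Tfh cells run by run, 134 genes were lower and 12 higher, and with the trend over intron length taken off 117 were lower and 62 higher.

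The G2/M lists here include chromosome structure genes, tubulins and Stmn1, which the promoter counts left out. Of 25 G2/M list genes with under 10 kb of intron 0 were lower in BKO, with median log2 ratios of -0.081 against run 1 and 0.022 against run 2. Of 36 with 10 kb or more 26 were lower, with medians of -1.01 and -0.92, against -0.25 in the other Tfh cells over the mean of the WT runs. Of all genes, 25 of 379 of 10 to 30 kb, 107 of 382 of 30 to 100 kb and 135 of 243 over 100 kb were lower. Of 9 S-list genes with 10 kb or more 1 was lower, with medians of -0.24 and 0.013, and of 7 under 10 kb 0 were. This split was made after the values were seen. Kif11, the motor that separates spindle poles, has 38 kb of intron and was at 84.9 CPM in BKO, against 287 and 316 CPM in WT. Prc1, which bundles midzone microtubules, was at 119 CPM in BKO, against 414 and 357 CPM. The ratio of BKO to WT for Mki67 (16.5 kb of intron) was 0.438 for run 1 (0.376 to 0.509 by counting) and 0.460 for run 2 (0.396 to 0.532). Among genes with short introns, Cenpa was at 576 CPM in BKO, against 506 and 507 CPM, and Cdc20 at 204 CPM, against 153 and 142 CPM. Others ran lower in BKO. Log2 ratios over the mean of the WT runs under 10 kb went from -0.56 for Spc25 to 0.46 for Cdc20. Ccnb2, a mitotic cyclin with 12.3 kb of intron, was not called, at 386 CPM in BKO, against 311 and 323 CPM.

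**Figure D5:**
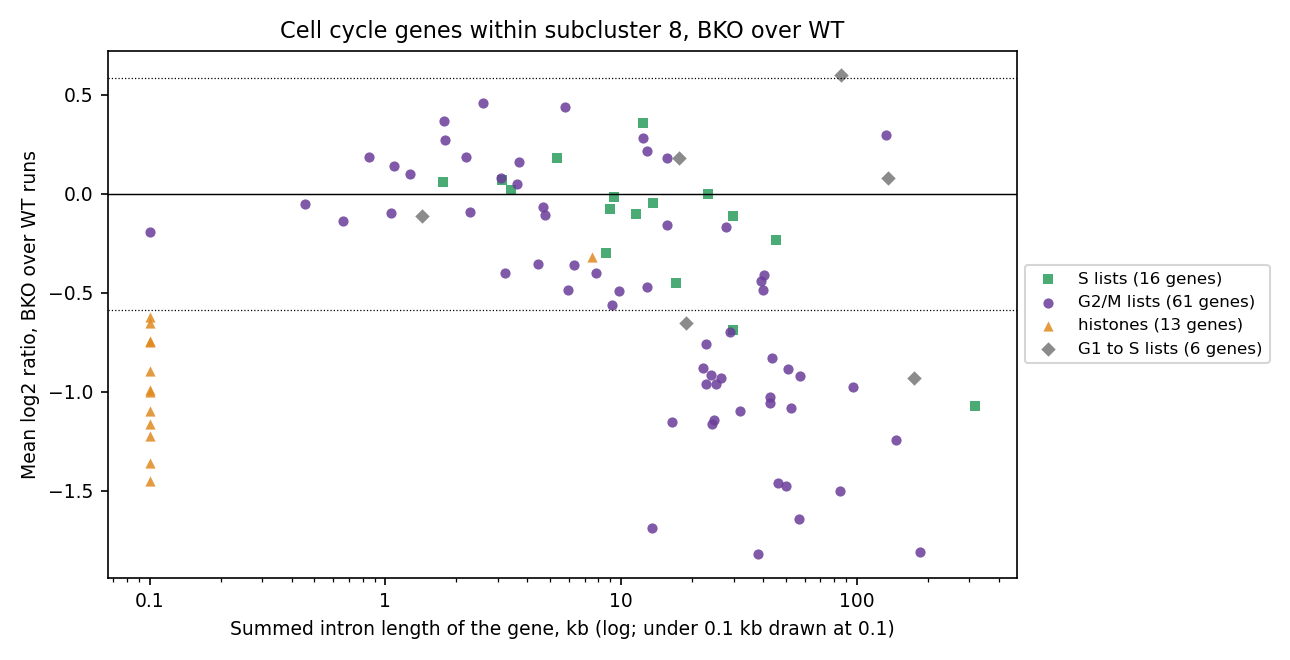
Mean log2 ratio of BKO over the 2 WT runs within subcluster 8 (y axis) against the summed intron length of the gene in kb (x axis, log) for 96 cell cycle genes, marked by list; dotted lines are 1.5-fold. G2/M genes (here with chromosome structure genes) under 10 kb lie between -0.56 and 0.46, and 26 of 36 with 10 kb or more are called lower. Histone genes, nearly all without introns, lie below 0.

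Histone genes were lower in BKO, and 12 of the 13 compared have no intron. Of the 13, 10 were lower in BKO, with median log2 ratios of -1.03 against WT run 1 and -0.90 against WT run 2. In other Tfh cells their median over the mean of the WT runs was -0.27. Hist1h3c was at 270 CPM in BKO, against 722 and 666 CPM in WT. Fine cluster 18, where histones were high, held 37.0% of BKO members, against 57.8% and 54.7% in WT. Within fine cluster 18 the medians were -0.43 and -0.29 with 3 of 13 lower, and within fine cluster 17 they were 0.07 and -0.022 with 3 of 13 lower and 1 higher. Of all 1706 genes 17.6% were lower and 5.92% higher in BKO within fine cluster 18, and 14.9% and 4.16% within fine cluster 17. The part of cluster makeup in the histone levels was not tested. Among S-phase genes 1 of 16 was lower (Pola1, 319 kb of intron) and 0 were higher. Of the kinetochore genes 5 of 9 were lower in each fine cluster, and 10 of 19 spindle genes in fine cluster 18 and 8 in fine cluster 17.

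Of 8 glycolysis genes 5 were higher in BKO and 0 lower, against 3.58% higher and 17.6% lower of all genes. Tpi1, triosephosphate isomerase, was at 195 CPM in BKO, against 78.9 and 82.9 CPM in WT, and Pgam1 was at 173 CPM, against 96.5 and 81.7 CPM. Gapdh was at 2062 CPM, against 1300 and 1224 CPM, and Pkm and Ldha were also called. Tpi1, Gapdh and Pgam1 have under 5 kb of intron, and Ldha and Pkm 10.8 and 18.01 kb. The list's median log2 ratio over the mean of the WT runs was 0.71 in members and 0.31 in other Tfh cells. Tfh identity had 0 of 12 higher and 1 lower (Btla), beside the same shares of all genes, with a median of 0.25, against 0.18 in other Tfh cells.

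Other genes higher in BKO members were Ly6a, Anxa2 and Cd9. Ly6a, an interferon-responsive surface protein, was at 564 CPM in BKO, against 136 and 144 CPM in WT, a ratio of 4.15 (3.29 to 5.28) to run 1 and 3.93 (3.18 to 4.87) to run 2. In other Tfh cells it was at 357 CPM, against 168 and 159 CPM. Anxa2, a calcium-dependent membrane-binding protein, was at 467 CPM in BKO, against 249 and 227 CPM in WT. Cd9, a tetraspanin, was at 223 CPM in BKO, against 74.6 and 72.4 CPM. Spp1, which encodes osteopontin, was at 302 CPM, against 14.6 and 10.5 CPM, but 167 of its 178 UMIs in BKO came from 1 cell.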

How the data were processed

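Single-cell RNA of sorted spleen follicular T cells was read with the 10x Chromium 3′ assay in 3 samples, BKO and 2 runs of WT. The deposited matrices hold raw UMI counts per gene and barcode. The submitters' processing notes name Cell Ranger and mm10, and per the file headers the version was 4 for BKO (1275404 barcodes without filtering) and 7.0.1 for WT (5554 and 5721 called cells). The sources used here do not say whether intron reads were counted. The authors' deposited tables give subclusters (resolution 0.3), finer clusters (resolution 1), UMI counts and the percent of mitochondrial UMIs (under 10%), with fewer than 4000 genes per cell. The sources used here say nothing on doublets, and no caller was run.

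Members were matched by barcode. Suffixes were assigned to samples by barcode overlap and UMI totals. UMIs were summed per sample and cell set and scaled to CPM, and 0.5 CPM was added before log2 ratios. No model was fitted to counts and no p-value was computed, because 1 library stands for each genotype, and fixed rules of size took the place of tests. Intervals are exact (Poisson for counts, Clopper-Pearson for shares, conditional binomial for ratios) at 95% and cover counting error only. In place of replicate error the 2 WT runs give technical spread. Thinning drew 2500 UMIs per cell with a fixed seed. Intron lengths are from the GENCODE vM21 annotation (GRCm38), in which 32235 of 32285 features were found. The intron trend was the median in 20 bins of intron length. TMM factors came from edgeR 4.0.16. The calling rules were run on simulated sums with counting error only and planted changes. That simulation holds no spread between cells or libraries, so it cannot give the error rate of the rules in these data.

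Named genes were the 15 of largest smallest ratio per direction between members and other Tfh cells, the 10 per direction between BKO and WT, the 4 of highest CPM per list and called list members, and a fixed set (Mki67, Top2a, Birc5, Cdk1, Pcna, Mcm5, Ccnb1, Cdc20, Il21, Il4, Cd40lg, Bcl6, Cxcr5, Pdcd1, Icos, Cd4, Foxp3, Myc and Siglecg), leaving aside antigen receptor segments, models without a name, and mitochondrial or ribosomal genes. Only some are printed. Fine clusters, the nearest profile, motifs, the split at 10 kb and the thinned mitotic minimum were added with the data in view. Members, the 28 lists and the rules were chosen with earlier results of these data known.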

Additional observations from a re-analysis of the deposited data

Results flagged for a closer look

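Iqgap2, which encodes a scaffold protein of the actin cytoskeleton, ran in opposite directions in the genotypes. The log2 ratio of subcluster 8 to other Tfh cells was -0.98 in BKO, against 0.68 in WT run 1 and 1.06 in WT run 2. The difference was not tested, since 1 library stands for each genotype. Iqgap2 was at 25.5 CPM in BKO members (15 UMIs), against 136 and 172 CPM in WT, and at 50.8 CPM in other BKO Tfh cells, against 84.5 and 82.2 CPM. The gene has 259 kb of intron, and genotype and counting of introns cannot be told apart.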

How the results depend on the processing

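Counts of genes moved with the limits chosen. Subcluster 8 against other Tfh cells gave 200 higher and 143 lower genes. At 1.5-fold these were 405 and 542, at a minimum of 20 CPM 335 and 274, and with no minimum 560 and 1331. TMM scaling gave 84 lower and the intron trend 53 lower. Leaving out 1 sample gave 202 to 244 higher and 154 to 210 lower genes. Thinning, a larger pseudocount, cells with no Foxp3 UMI and leaving out 3 BKO cells kept both counts within 1.5 times. Similar counts do not mean the same genes. With thinning 190 were higher, 167 of them among the 200, and 123 lower, 87 of them among the 143.

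Within subcluster 8, BKO against WT gave 61 higher and 301 lower genes. At 2-fold these were 7 and 107, at a minimum of 50 CPM 122 and 660, with no minimum 1662 and 3653, and relative to other Tfh cells 12 and 134. Higher genes numbered 167 with TMM, 135 with thinned cells and 103 in fine cluster 18 alone, and lower genes 117 with the intron trend taken off. Of the 135 higher with thinned cells, 35 were among the 61. Thinned cells gave 283 lower genes, 183 of them among the 301. Leaving out 1 WT run gave 110 to 142 higher and 288 to 305 lower genes; without BKO no value can be given. Fine clusters, the ratio to other Tfh cells, the intron trend, the 3 BKO cells and the cells of at least 10 Ccl5 UMIs were chosen after seeing the data.

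For each of 76 genes compared between BKO and WT, the value is the log2 ratio to the WT run that gives the weaker call. Of these values 18 changed sign, and the cause was not tested. In 6 cases within a fine cluster (Nusap1 and Sostdc1 in 18, and E2f2, Hist1h1b, Hist1h2ap and Ctla2a in 17) the sign changed against 1 run only. Log2 ratios relative to other Tfh cells became 0.28 for Nusap1, 0.72 for Ctla2a and 1.01 for Gzmk. In fine cluster 18 alone they were 0.024 for Nusap1, -1.52 for Trbc1 and -0.68 for Sostdc1. In fine cluster 17 alone they were 0.55 for E2f2, 0.048 for Hist1h1b, 0.61 for Hist1h2ap, 0.56 for Hist1h1d, 0.28 for Hist1h2ae, 0.59 for Hist1h4d, 1.13 for Hist1h1c, 0.092 for Ctla2a and 2.00 for Gzmk. Without the cells of at least 10 Ccl5 UMIs they were 0.29 for Hist1h1c, 2.15 for Ctla2a and 1.86 for Gzmk. The other values kept their sign, with 950 within counting error and 172 moved. Of 127 genes set against other Tfh cells 0 values changed sign.

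The share of Tfh cells in subcluster 8 without subcluster 1 was 0.841% in BKO, against 2.29% in WT run 1 and 1.89% in WT run 2. The share of cycling cells in no table was 20.95%, 18.5% and 13.4% at 5 mitotic UMIs and 83.4%, 64.2% and 66.6% at 20. No paired analysis was possible because the WT samples are runs of the same cells and no test was made.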

Other observations

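Trbv2 led the T cell receptor beta segments of members, with 15 of 46 Trbv UMIs in BKO (32.6%, in 4 cells), against 22 of 56 in WT run 1 (39.3%, in 6 cells) and 38 of 78 in WT run 2 (48.7%, in 9 cells). In other Tfh cells its share was 30.5% in BKO, against 23.98% and 21.6% in the WT runs. UMIs of 1 cell are not independent, and few cells carry these counts.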
